A study of Homo sapiens with 12 samples.

Results

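The 10 genes described here encode parts of the epithelial tight junction, the seal that joins neighbouring cells at the top of their lateral membranes. They are the claudins CLDN1, CLDN2, CLDN3, CLDN4, CLDN7, CLDN12 and CLDN15, occludin (OCLN), junctional adhesion molecule A (F11R) and zonula occludens-1 (TJP1). They were chosen by name, as the pore-forming claudins, the sealing claudins and the other core membrane and scaffold proteins of the junction. The choice was made with earlier results of these data known. They are 10 of the 20015 genes in the count table. All 10 passed the filter on low counts. RNA was sequenced from HT29 cells, a human colorectal adenocarcinoma line of epithelial origin, that expressed the Cas9 nuclease. Lentivirus brought in a guide RNA, which was non-targeting in the cells called WT and directed at QRICH1 in those called QRICH1 KO, and both received either the solvent DMSO or 0.3 µg/ml tunicamycin (Tm) for 14 h. All 4 groups therefore share Cas9 and a lentiviral guide, and each has 3 libraries, which the series' design text calls biological replicates. The labels do not say whether the knockout cells were 1 clone or a pool. Tunicamycin blocks N-linked glycosylation and causes stress in the endoplasmic reticulum (ER), and QRICH1 is a transcriptional regulator linked to that response.

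Claudins are small proteins with 4 membrane spans whose outer loops meet those of the opposite cell and set which ions pass between cells. Most tighten the seal, whereas CLDN2 and CLDN15 form pores for small cations and, for CLDN2, water. In the intestine CLDN2 is typical of crypts and of inflamed tissue. Occludin and F11R are further membrane proteins of the junction, and TJP1 is the scaffold beneath them that ties claudins to actin.

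Library totals were 6856736 to 17861844 counts, and a gene with no count could still have had up to 3 counts, or 0.1696 to 0.4561 counts per 1000000 counts (CPM) after TMM scaling. This bound covers counting error only. Library 3 of both QRICH1 KO groups had counts for more genes (15340 and 14813) than the other 10 libraries (13124 to 14094). The ER chaperone HSPA5 was at 968 to 1200 CPM in all DMSO libraries and higher in all Tm libraries, as the treatment labels state. With Tm it was at 26275 to 30882 CPM in WT and 15296 to 17930 CPM in QRICH1 KO, without overlap. Whether this difference bears on the genotype comparisons below was not tested. QRICH1 itself was at 22.7 to 35.0 CPM in WT and 19.2 to 26.8 CPM in QRICH1 KO libraries. These ranges overlapped, so the QRICH1 transcript does not check the genotype labels. EPCAM, KRT8 and KRT18 marked every library as epithelial, and EPCAM, which also binds CLDN7, was at 1486 to 2003 CPM. Of the 8 epithelial markers listed, the intestinal cadherin CDH17 did not pass the filter. It had at most 19 counts in any library (0.0825 to 1.51 CPM). Of the 14 markers of other cell types, 13 summed to 0.974 to 3.42 CPM. The exception was LYZ, which was abundant in all 12 libraries, at 1832 to 2651 CPM. LYZ passed the test as lower with Tm in WT (log2 -0.36, SE 0.115, edgeR adjusted p = 0.0305), a call lost without any 1 of 5 of the 6 WT libraries. The part of LYZ-expressing cells in the results below was not tested. In bulk RNA, fewer cells of a kind and less RNA per cell cannot be told apart.

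CLDN2, CLDN1 and CLDN7 were the members that changed in WT cells given Tm, and the sequences upstream of their RefSeq start sites are shown to let their base composition be compared. Each is 5′ to 3′ on the gene's own strand and ends next to the start site, except that bases inside an annotated exon were left out. Capitals mark CpG dinucleotides, the sites of DNA methylation that are dense in many constitutively used promoters. The sequences are from RefSeq (GRCh38.p14). CLDN2 and CLDN7 have 2 entries each, and the one whose window holds no annotated exon is shown. For CLDN2 this is the downstream start (chrX:106918110-106918359, plus strand). For CLDN1 the stretch is chr3:190322476-190322696 and for CLDN7, at its upstream start, chr17:7263214-7263463, both minus strand.
CLDN2: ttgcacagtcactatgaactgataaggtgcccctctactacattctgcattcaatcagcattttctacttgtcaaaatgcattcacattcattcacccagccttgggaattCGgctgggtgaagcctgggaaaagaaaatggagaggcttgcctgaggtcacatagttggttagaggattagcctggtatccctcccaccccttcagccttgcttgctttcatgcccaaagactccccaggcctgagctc
CLDN1: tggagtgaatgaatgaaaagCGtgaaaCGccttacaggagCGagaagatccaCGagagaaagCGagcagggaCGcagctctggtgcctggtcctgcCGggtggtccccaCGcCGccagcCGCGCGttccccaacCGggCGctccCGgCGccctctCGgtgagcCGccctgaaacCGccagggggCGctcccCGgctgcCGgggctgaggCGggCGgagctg
CLDN7: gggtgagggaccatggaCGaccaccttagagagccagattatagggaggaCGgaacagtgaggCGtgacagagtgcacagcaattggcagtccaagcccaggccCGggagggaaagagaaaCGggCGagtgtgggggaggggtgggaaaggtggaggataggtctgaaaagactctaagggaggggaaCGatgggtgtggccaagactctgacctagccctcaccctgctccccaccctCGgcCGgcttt

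The CLDN2 stretch held 1 CpG in 250 bases, the CLDN7 stretch 9 in 250 and the CLDN1 stretch 24 in 221. The windows not shown held 0 CpG for CLDN2 and 25 for CLDN7, the latter wholly within exons, so the CLDN7 value depends on the start taken. Over all 35116 promoter entries the median was 11 CpG in 250 bases, and 14.7% had at most 1. The 250 bases upstream were searched on both strands in the 15 entries found for 9 members (all but F11R). The search covered the ER stress element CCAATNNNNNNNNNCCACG (in 0.074% of all entries), the second ER stress element ATTGGNCCACG (0.0513%), the XBP1 and ATF6 site TGACGTG (1.68%) and the ATF4 and CHOP element TGATGNAA (3.14%). It also covered the HNF4 site CAAAGNCCA (1.34%), the CDX site CCATAAA (2.3%), the GATA site AGATAA (9.17%), the GRHL site AACCNGTT (1.49%), the SNAIL E-box CAGGTG (17.5%) and the TATA box TATAAA (10.7%). None of these letters occurred in the 3 stretches printed above. CLDN3 held the XBP1 and ATF6 site on the reverse strand, 96 to 102 bases before its start, and CLDN4 held the HNF4 site, 200 to 208 bases before its start. The SNAIL E-box occurred in 4 entries, of OCLN, TJP1 and the other CLDN7 start. A match is a description of letters and not a bound site.

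The order of the genes was compared per kilobase of merged GENCODE 29 exons. In WT DMSO libraries CLDN4 was highest at 156 ± 12.1 CPM per kb (SD, n = 3), followed by CLDN3 at 96.6 ± 11.3 and CLDN7 at 78.0 ± 3.6. The libraries of these 3 claudins did not overlap, but CLDN7 stood above CLDN3 when coding length was used in place of exon length. TJP1 (8.30 ± 0.315 CPM per kb), CLDN2 (8.15 ± 0.717) and CLDN12 (6.51 ± 2.10) came next, with overlapping libraries. By coding length TJP1, whose coding sequence is far longer, came eighth of the 10, at 14.7 CPM per kb of coding sequence beside 40.3 for CLDN2 and 31.7 for CLDN12, below F11R and CLDN1. F11R, CLDN1 and OCLN lay between 2.78 and 4.12 CPM per kb and each overlapped its neighbour in the order. CLDN15 was lowest at 1.03 ± 0.495. Sealing claudins thus made up most of the claudin RNA of these cells, with CLDN2 as a minor species.

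**Figure D1:**
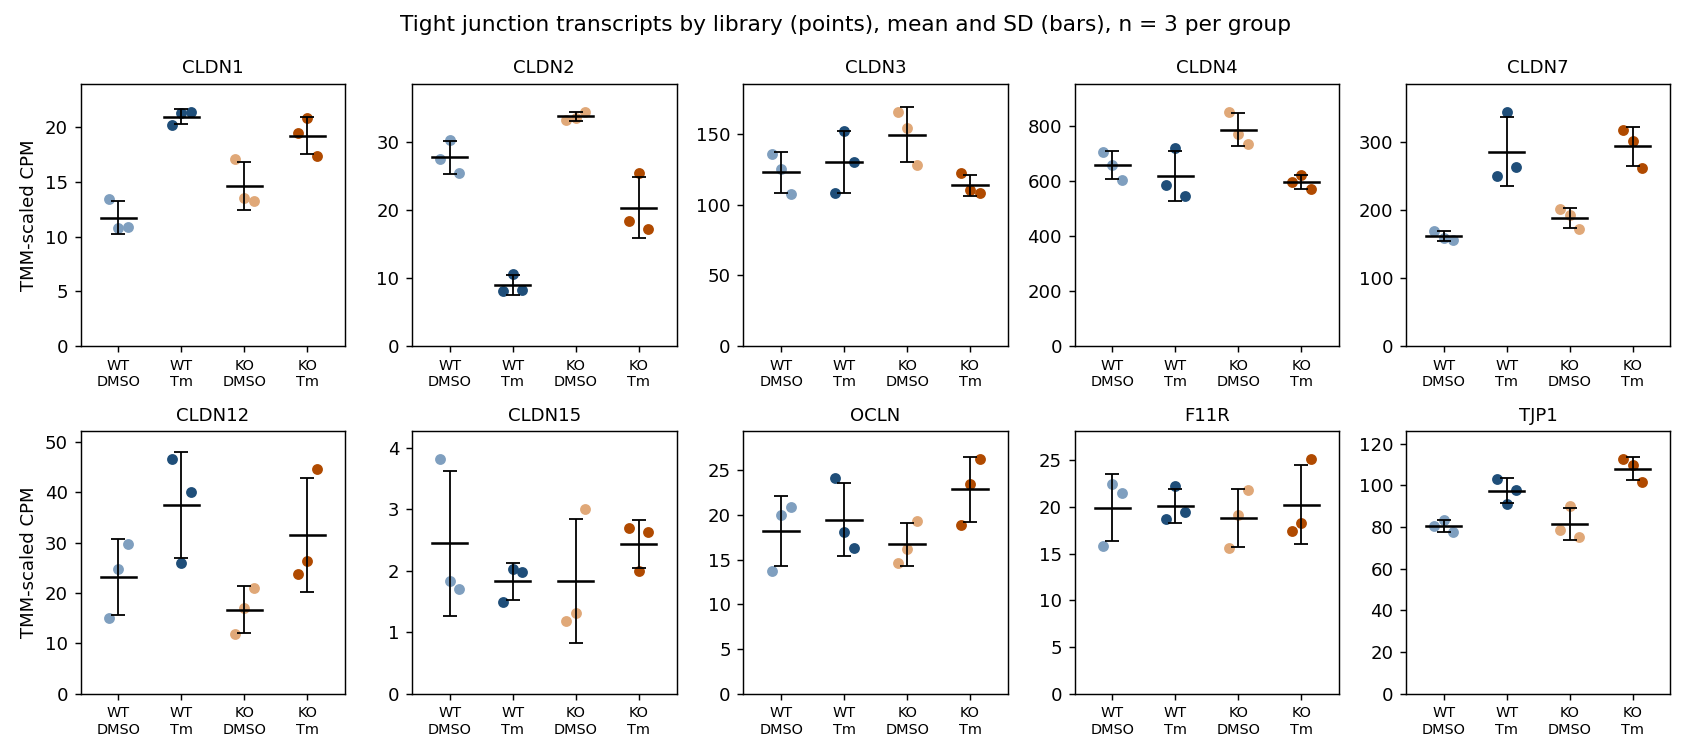
TMM-scaled CPM (vertical axes, linear from 0) of the 10 genes in the 4 groups, WT or QRICH1 KO (KO) with DMSO or Tm. Points are libraries, long bars means and whiskers SD (n = 3). The 3 WT Tm libraries of CLDN2 lie between 8.17 and 10.6 CPM, below every other library.

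Tm against DMSO in WT asks how ER stress changes these transcripts in cells with intact QRICH1. The pore-forming CLDN2 fell, the sealing claudins CLDN1 and CLDN7 rose, and the other 7 genes did not pass the test. This was edgeR's quasi-likelihood test on all 12 libraries, with Benjamini-Hochberg adjustment over the 11323 genes tested and a threshold of 0.05. The 2 members called higher stand beside 12.6% of all genes, and the 1 called lower beside 11.1%, so the number of calls among the 10 is near the background. Libraries did not overlap between the groups for 4 of the 10, beside 37.5% of all genes.

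CLDN2 (chrX:106900164-106930861, hg38) was at 27.6, 30.3 and 25.4 CPM in WT DMSO libraries 1 to 3 and at 8.17, 10.6 and 8.21 CPM in WT Tm. All Tm libraries were low, and even the highest lay far below the lowest DMSO library. The change was 3.07-fold lower (log2 -1.62, SE 0.170, edgeR adjusted p = 1.04e-06). It rests on 203 to 498 counts per library without Tm and 54 to 131 with it.

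CLDN15, the other cation pore, had few counts, 13 to 48 per library over the series. It was at 3.81, 1.83 and 1.71 CPM in WT DMSO and 1.48, 2.03 and 1.98 CPM in WT Tm, and the groups overlapped. Its log2 difference was -0.36 with a 95% interval of -1.29 to 0.56, so changes within those bounds were not excluded.

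Among the sealing claudins, CLDN1 (chr3:190305701-190322475), whose loss opens the barrier of the skin, was at 13.5, 10.8 and 10.9 CPM in WT DMSO and 20.2, 21.3 and 21.4 CPM in WT Tm. The 3 Tm libraries were all higher and close together. The rise was 1.80-fold (log2 0.85, SE 0.160, edgeR adjusted p = 0.000661).

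CLDN7 (chr17:7259903-7263983), a claudin found along the whole lateral membrane of intestinal cells, was at 169, 159 and 155 CPM in WT DMSO and 250, 344 and 262 CPM in WT Tm. Every Tm library was higher, with library 2 well above the other two. The rise was 1.78-fold (log2 0.83, SE 0.125, edgeR adjusted p = 7.5e-05).

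CLDN3 and CLDN4, neighbouring genes on chromosome 7 and receptors for an enterotoxin of Clostridium, did not pass the test in WT. CLDN3 was at 136, 126 and 108 CPM in DMSO and 109, 153 and 130 CPM in Tm (log2 0.09, 95% interval -0.20 to 0.37). CLDN4, the highest member, was at 705, 659 and 604 CPM in DMSO and 587, 718 and 546 CPM in Tm (log2 -0.09, 95% interval -0.33 to 0.15). The groups overlapped for both, and a change of 2-fold lies outside both intervals.

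CLDN12, a claudin linked to calcium passage, was at 15.1, 24.7 and 29.8 CPM in WT DMSO and 46.5, 26.0 and 40.1 CPM in WT Tm. Its libraries were spread widely, with Tm library 2 inside the DMSO range, and its log2 difference of 0.67 did not pass (SE 0.275, edgeR adjusted p = 0.0867). It passed in 6 of the 19 alternatives run. With all 12 libraries these were no filter on low counts (log2 0.67, adjusted p = 0.000504), the replicate number as a block (0.73, 0.0223) and DESeq2 (0.69, 0.0499), and with fewer the fit of only the groups compared (0.67, 0.0436), without WT Tm library 2 (0.88, 0.0385) and without both QRICH1 KO libraries 3 (0.65, 0.0421).

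Occludin was at 13.7, 20.0 and 20.8 CPM in WT DMSO and 24.1, 18.0 and 16.3 CPM in WT Tm, with overlapping groups (log2 0.09, SE 0.194). F11R was at 15.8, 22.4 and 21.5 CPM in DMSO and 18.7, 22.2 and 19.5 CPM in Tm (log2 0.01, SE 0.183). Neither differed beyond the spread between libraries. TJP1 was at 80.7, 83.5 and 77.4 CPM in DMSO and 103, 91.2 and 97.6 CPM in Tm. Its Tm libraries were all higher, but the log2 difference of 0.27 (SE 0.106) did not pass in edgeR (adjusted p = 0.0698), while DESeq2 gave an adjusted p = 0.0492.

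The same treatment was then examined in cells with the QRICH1 guide. CLDN7, CLDN12 and TJP1 rose, CLDN2 and CLDN4 fell, and 5 genes did not pass the test. The 3 called higher stand beside 9.09% of all genes and the 2 called lower beside 6.53%, and the libraries did not overlap for 7 of the 10, beside 32.4%. Without both QRICH1 KO libraries 3, those with more detected genes, 1 member was called higher (CLDN7) and 1 lower (CLDN2).

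CLDN2 was at 33.3, 33.6 and 34.5 CPM in QRICH1 KO DMSO and 18.4, 25.5 and 17.3 CPM in QRICH1 KO Tm. The Tm libraries were again all lower, library 2 least so. The fall was 1.67-fold (log2 -0.74, SE 0.158, edgeR adjusted p = 0.00342).

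CLDN7 was at 201, 192 and 172 CPM in QRICH1 KO DMSO and 318, 301 and 262 CPM in QRICH1 KO Tm, a rise of 1.56-fold with no overlap (log2 0.64, SE 0.124, edgeR adjusted p = 0.00154). CLDN1 was at 17.1, 13.5 and 13.3 CPM in DMSO and 19.5, 20.8 and 17.4 CPM in Tm. Its Tm libraries were all higher, by a margin of under 1 CPM at the closest, and its log2 difference of 0.39 (SE 0.154) did not pass (edgeR adjusted p = 0.0978).

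CLDN4 was at 851, 769 and 735 CPM in QRICH1 KO DMSO and 597, 622 and 571 CPM in QRICH1 KO Tm. All Tm libraries were lower, and the fall was 1.32-fold (log2 -0.40, SE 0.115, edgeR adjusted p = 0.0255). The call was lost on leaving out QRICH1 KO DMSO library 1 (log2 -0.33, adjusted p = 0.107) or 2 (-0.41, 0.0672), or QRICH1 KO Tm library 1 (-0.40, 0.0609), 2 (-0.43, 0.0533) or 3 (-0.36, 0.088). CLDN3 moved by the same size, from 166, 155 and 128 CPM to 122, 111 and 108 CPM, and lay on the other side of the threshold (log2 -0.40, SE 0.135, edgeR adjusted p = 0.0549). It passed in 10 of the 19 alternatives run, so CLDN3 and CLDN4 are not distinguished by their calls.

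CLDN12 was at 11.8, 17.1 and 21.1 CPM in QRICH1 KO DMSO and 23.7, 26.5 and 44.6 CPM in QRICH1 KO Tm. Library 3 was the highest of each group. The rise was 1.90-fold (log2 0.93, SE 0.276, edgeR adjusted p = 0.0289). It was no longer called without QRICH1 KO DMSO library 1 (log2 0.73, adjusted p = 0.118) or 2 (0.95, 0.0819), without QRICH1 KO Tm library 3 (0.59, 0.191) or without both libraries 3 (0.79, 0.0842).

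TJP1 was at 78.6, 90.0 and 75.4 CPM in QRICH1 KO DMSO and 112, 110 and 102 CPM in QRICH1 KO Tm. All Tm libraries were higher, and the rise was 1.33-fold (log2 0.41, SE 0.105, edgeR adjusted p = 0.0121). Without both libraries 3 the log2 value was 0.40 and the adjusted p 0.0532. Occludin was at 14.6, 16.1 and 19.3 CPM in DMSO and 18.9, 23.4 and 26.2 CPM in Tm (log2 0.45, SE 0.191, edgeR adjusted p = 0.124), F11R at 15.5 to 21.8 and 17.4 to 25.1 CPM (log2 0.11, SE 0.180), and CLDN15 at 1.19 to 3.0 and 1.99 to 2.70 CPM (log2 0.42, SE 0.416). The groups overlapped for these 3 genes.

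**Figure D2:**
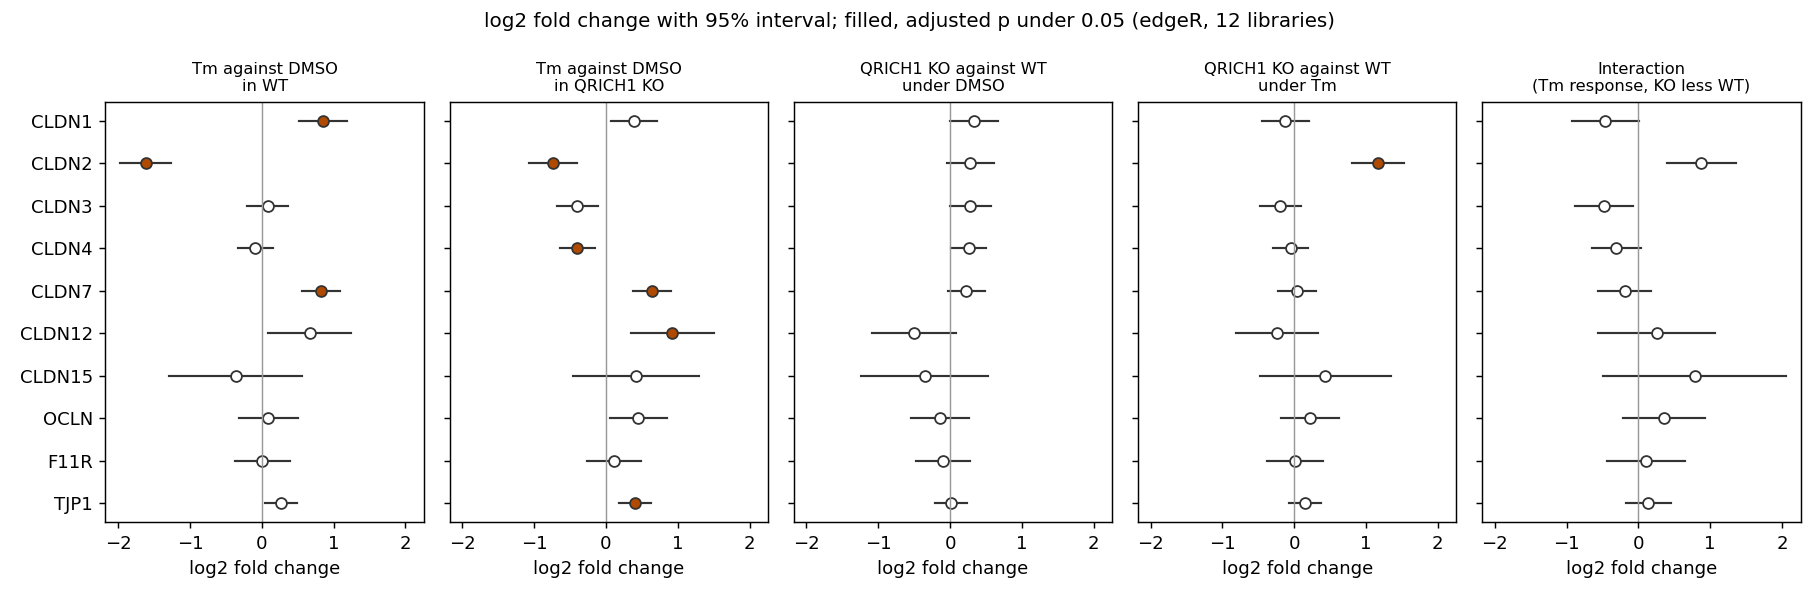
log2 fold change (horizontal axes) of the 10 genes in the 4 comparisons and the interaction, from edgeR on 12 libraries. Points are estimates, lines 95% intervals, and filled points have an adjusted p under 0.05. CLDN2 is at -1.62 with Tm in WT, -0.74 with Tm in QRICH1 KO and 1.16 in QRICH1 KO against WT under Tm.

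The comparison of the genotypes under Tm asks whether the level reached under stress depends on QRICH1. CLDN2 was 2.24-fold higher in QRICH1 KO (log2 1.16, SE 0.172, edgeR adjusted p = 0.00348), at 18.4, 25.5 and 17.3 CPM beside 8.17, 10.6 and 8.21 CPM in WT. The groups were well apart, with every QRICH1 KO library above every WT library. It was the 1 member called higher, beside 0.406% of all genes, and none was called lower, beside 0.76%. The libraries did not overlap for 1 of the 10, beside 18.5%. CLDN2 was called in all 19 alternatives run, with log2 values of 0.98 to 1.31 and adjusted p values up to 0.0217. The comparison shares its WT Tm and QRICH1 KO Tm libraries with those above and is not independent of them.

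The other 9 members differed by less than 0.44 on the log2 scale. For CLDN1 (log2 -0.12, 95% interval -0.45 to 0.20), CLDN3 (-0.20, -0.48 to 0.09), CLDN4 (-0.05, -0.29 to 0.19), CLDN7 (0.04, -0.22 to 0.30) and TJP1 (0.15, -0.07 to 0.37), a 2-fold difference in either direction lay outside the interval. Occludin (0.22, -0.19 to 0.62), F11R (0.01, -0.38 to 0.39) and CLDN12 (-0.24, -0.82 to 0.33) had wider intervals, and for CLDN15 the interval ran from -0.48 to 1.35.

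QRICH1 KO against WT under DMSO asks for differences without stress. No member passed edgeR's test, beside 0.0177% of all genes called higher and 0.0795% lower, and DESeq2 also called none. At an unadjusted p under 0.05 there were 3 of the 10, beside 9.07% of all genes, CLDN1 (log2 0.33, SE 0.158), CLDN3 (0.28, SE 0.135) and CLDN4 (0.26, SE 0.115). QRICH1 KO libraries were all above WT libraries for 3 of the 10, CLDN2, CLDN4 and CLDN7, beside 13.5% of all genes with no overlap in either direction. CLDN2 was at 33.3 to 34.5 CPM in QRICH1 KO and 25.4 to 30.3 CPM in WT (log2 0.28, 95% interval -0.04 to 0.61). The other members had log2 values of -0.50 (CLDN12, SE 0.277) to 0.23 (CLDN7, SE 0.124).

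The interaction tests whether the response to Tm differed between QRICH1 KO and WT. No member passed, as no gene did (0% of the 11323 in edgeR, with 774, or 6.84%, at an unadjusted p under 0.05), and DESeq2 called none of the members. The largest value at an unadjusted p under 0.05 was that of CLDN2, with log2 0.88 (SE 0.231, 95% interval 0.39 to 1.36, unadjusted p = 0.00134, edgeR adjusted p = 0.309). Its adjusted p was 0.0909 to 0.679 over 18 alternatives. CLDN3 also lay under the unadjusted threshold (log2 -0.48, SE 0.191, adjusted p = 0.651). The smaller fall of CLDN2 in QRICH1 KO cells is therefore not shown to be a different response at the threshold used over all genes.

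The makeup of the claudin pool was described as each claudin's share of the summed CPM per kb of the 7 claudins. CLDN7 made up 22.3 ± 0.801% (SD, n = 3) in WT DMSO and 33.8 ± 1.13% in WT Tm, and 22.0 ± 0.330% and 35.9 ± 1.67% in QRICH1 KO. CLDN4 went from 44.7 ± 0.171% to 36.1 ± 1.86% in WT and from 45.1 ± 1.04% to 36.0 ± 1.21% in QRICH1 KO. In each genotype the Tm libraries lay outside the DMSO range for both claudins. The levels depend on the length used. With coding length CLDN4 made up 66.2% and 56.8% in WT without and with Tm and 66.8% and 56.2% in QRICH1 KO, and CLDN7 made up 16.1% and 26.0% in WT and 15.9% and 27.3% in QRICH1 KO, with the same directions. Shares sum to 100%, so the lower share of CLDN4 in WT accompanies the rise of CLDN7 with no called change of CLDN4 itself.

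CLDN2 made up 2.16, 2.53 and 2.31% of the pool in WT DMSO libraries and 0.651, 0.657 and 0.634% in WT Tm. In QRICH1 KO it made up 2.18, 2.36 and 2.66% with DMSO and 1.31, 1.86 and 1.36% with Tm. The 3 WT Tm libraries agreed closely and were the lowest of the 12, and the QRICH1 KO Tm libraries lay between them and the DMSO libraries. With coding length in place of exon length the means were 2.55, 0.752, 2.63 and 1.74% in the order WT without and with Tm, then QRICH1 KO without and with Tm. With 3 libraries against 3 an exact permutation test cannot reach a p below 0.10, so no test of the shares is given.

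**Figure D3:**
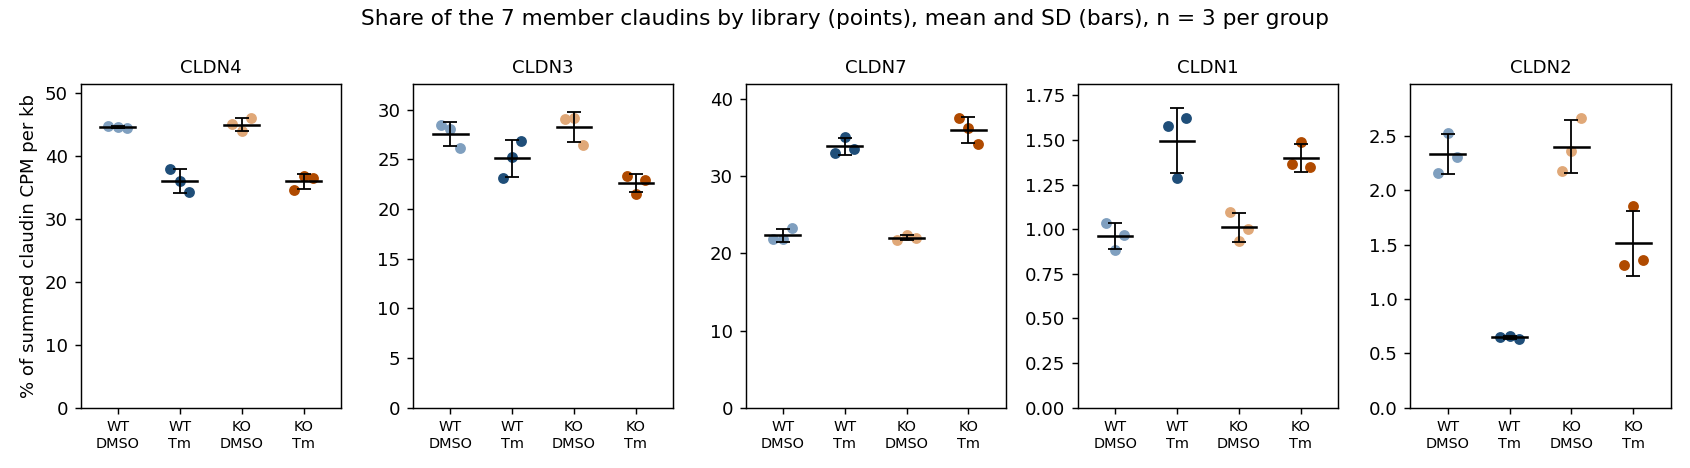
Share of the summed CPM per kb of the 7 claudins (vertical axes, in %, linear from 0, scaled per panel) for CLDN4, CLDN3, CLDN7, CLDN1 and CLDN2 in the 4 groups. Points are libraries, long bars means and whiskers SD (n = 3). CLDN2 is at 0.634 to 0.657% in WT Tm and at 1.31 to 1.86% in QRICH1 KO Tm.

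The genes whose log2 CPM followed each changed member most closely over the 12 libraries were taken from 6949 genes with a mean of at least 10 CPM. For CLDN2 these were the glycolytic enzyme gene PGAM1 (Pearson r 0.973), TNS4, which encodes a focal adhesion protein (0.965), and ANXA4, which encodes a calcium-dependent phospholipid-binding protein (0.965). For CLDN1 they were UPP1 (0.968), FHL2 (0.967) and the tyrosyl-tRNA synthetase gene YARS1 (0.959), and for CLDN7 TXLNA (0.983), the metallothionein gene MT2A (0.983) and the ribosomal protein gene RPS12 (0.982). The libraries fall into Tm and DMSO sets, and these values are a description with no p.

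Of the 17 other claudins listed, 15 did not pass the filter and had at most 10 counts in any library. CLDN9 and CLDN23 passed it, at 0.548 to 2.69 and 1.04 to 5.82 CPM, and neither was called in any comparison. CLDN23 was at 4.32 to 5.82 CPM in QRICH1 KO DMSO and 1.04 to 3.20 CPM in WT DMSO. These libraries did not overlap, beside 13.5% of all genes. Of the 2 genes, 1 had an unadjusted p under 0.05 in QRICH1 KO against WT under DMSO and 1 in the interaction, beside 9.07% and 6.84% of all genes. Among 10 other tight junction membrane proteins 7 were tested and none was called with Tm in either genotype. Tricellulin (MARVELD2), which seals the corners where 3 cells meet, was at 18.2 to 25.7 CPM over all libraries (log2 -0.16 in WT and -0.05 in QRICH1 KO). At an unadjusted p under 0.05 there were 3 of the 7 in WT and 0 in QRICH1 KO, beside 34.9% and 28.6% of all genes.

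The cytoplasmic plaque beneath the strands holds the scaffold and polarity proteins that anchor them. Of 20 tested plaque and polarity genes, 1 was called higher and 5 lower with Tm in WT, and 0 and 2 in QRICH1 KO, beside the same 12.6% and 11.1%, and 9.09% and 6.53%, of all genes. The median log2 difference of the list was -0.09 in WT, beside -0.02 over all genes tested, and -0.09 in QRICH1 KO, beside -0.0039. The lists here were drawn up with earlier results of these data known.

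Cingulin (CGN), which links the plaque to actomyosin, was at 55.2, 61.7 and 47.7 CPM in WT DMSO and 33.7, 24.5 and 31.9 CPM in WT Tm. Its Tm libraries were all lower (log2 -0.88, SE 0.180, edgeR adjusted p = 0.00146). In QRICH1 KO it went from 37.6, 45.1 and 60.3 to 25.7, 27.7 and 35.9 CPM (log2 -0.68, SE 0.178, adjusted p = 0.0143), a call lost without QRICH1 KO DMSO library 3 or QRICH1 KO Tm library 1 or 2 (adjusted p up to 0.0698).

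TJP3, the ZO-3 scaffold, was at 51.6, 57.1 and 50.2 CPM in WT DMSO and 27.2, 32.2 and 33.3 CPM in WT Tm (log2 -0.78, SE 0.168, edgeR adjusted p = 0.00216). In QRICH1 KO it went from 71.0, 59.5 and 49.3 to 45.3, 39.0 and 27.6 CPM (log2 -0.69, SE 0.165, adjusted p = 0.00796). It was called in all 19 alternatives in both genotypes, while its paralogue TJP1 was higher in every Tm library.

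The scaffold MAGI2 fell with Tm in WT (log2 -1.38, SE 0.282, edgeR adjusted p = 0.00145), from 9.82 to 13.1 CPM down to 2.60 to 5.61 CPM. In QRICH1 KO it was at 5.14 to 8.63 CPM with DMSO and 4.68 to 6.84 CPM with Tm. Those libraries overlapped, and MAGI2 was not called there. AMOT, which binds actin and polarity proteins, was at 0.406 to 0.608 CPM with Tm in WT, from 4 or 5 counts per library. Its WT call (log2 -1.77, SE 0.609, edgeR adjusted p = 0.0425) was lost without WT DMSO library 2 or 3, without any 1 of the WT Tm libraries and without QRICH1 KO Tm library 2 (adjusted p up to 0.165). The remaining 2 calls in WT, named after their values were seen, were MAGI3 (log2 -0.75, SE 0.182) and YBX3, a Y-box protein that binds ZO-1 (log2 0.45, SE 0.129). The YBX3 call was lost without WT DMSO library 2 or WT Tm library 2 and with no filter on low counts (adjusted p up to 0.0768).

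**Figure D4:**
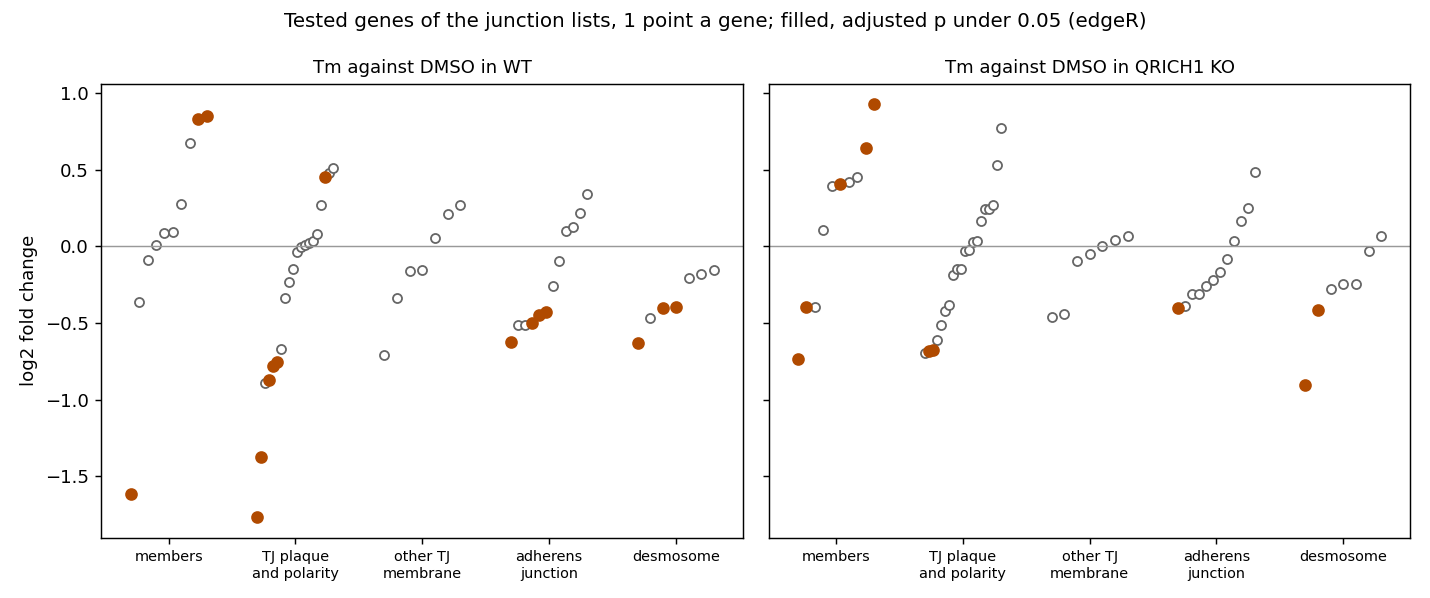
log2 fold change (vertical axis) of every tested gene of 5 junction lists with Tm in WT (left) and in QRICH1 KO (right), 1 point a gene, sorted within its list. Filled points have an edgeR adjusted p under 0.05 (TJ, tight junction). In WT, 1 of 20 plaque and polarity genes was called higher and 5 lower, and the called adherens junction and desmosome genes lie below 0.

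Of 12 adherens junction genes 4 were called lower and none higher in WT, beside 11.1% and 12.6% of all genes, and 1 and 0 in QRICH1 KO, beside 6.53% and 9.09%. E-cadherin (CDH1), the adhesion receptor of that junction, was at 144 to 159 CPM in WT DMSO and 173 to 209 CPM in WT Tm and did not pass (log2 0.34, SE 0.146, edgeR adjusted p = 0.103). β-catenin (CTNNB1), which binds its tail, was at 259, 242 and 234 CPM and then 174, 190 and 156 CPM (log2 -0.50, SE 0.119, adjusted p = 0.00471), and was called in all 19 alternatives.

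The other called genes were NECTIN1 (log2 -0.62, SE 0.200), JUP (-0.45, SE 0.125) and VCL (-0.43, SE 0.120). Each lost its call without at least 1 WT library. These were WT DMSO library 1 or 3 or WT Tm library 2 or 3 for NECTIN1, WT DMSO library 1 or WT Tm library 3 for JUP and WT Tm library 2 for VCL (edgeR adjusted p up to 0.113). In QRICH1 KO the 1 gene called was JUP (-0.40, SE 0.125, adjusted p = 0.0362), which was lost on leaving out both libraries 3 or any 1 QRICH1 KO library other than DMSO library 3 (adjusted p up to 0.143).

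Of 7 tested desmosome genes 3 were called lower in WT, beside 11.1% of all genes, and 2 in QRICH1 KO, beside 6.53%, with none higher. Desmoplakin (DSP), which anchors keratins, fell from 154 to 165 CPM to 116 to 127 CPM in WT (log2 -0.40, SE 0.109, edgeR adjusted p = 0.0108). Plakophilin-3 (PKP3) fell in both genotypes, by 0.63 (SE 0.200, adjusted p = 0.0281) on the log2 scale in WT and 0.91 (SE 0.199, adjusted p = 0.00417) in QRICH1 KO. The WT call of PKP3 was lost without WT DMSO library 1 or 3 or WT Tm library 1 or 3. PKP2 was lower in QRICH1 KO (log2 -0.41, SE 0.109, adjusted p = 0.0144), a call lost without QRICH1 KO DMSO library 1 or 2 or QRICH1 KO Tm library 1. PERP, a membrane protein of desmosomes, was lower with Tm in WT (log2 -0.39, SE 0.106, adjusted p = 0.0108), which was lost without WT Tm library 2 (adjusted p = 0.054). It was the 1 gene of the junction lists besides CLDN2 called in QRICH1 KO against WT under Tm (log2 0.45, SE 0.106, adjusted p = 0.0445), and that call was lost in 12 of 19 alternatives (adjusted p up to 0.200).

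The authors' counting sets a limit for some members. The library kit does not mark strand, and how reads shared by 2 genes were counted is not given in the sources used here. Of the 50-base stretches of F11R transcripts, 34.7% also occur in the overlapping gene AL591806.3, so F11R is the least certain member. The shares were 12.6% for CLDN12, mostly with genes that overlap it, 8.80% for OCLN, mostly with its pseudogene OCLNP1, 8.75% for CLDN2 with RIPPLY1 on the opposite strand, and 8.25% for CLDN7 with AC003688.1. The counts of AL591806.3 and AC003688.1 were not examined. RIPPLY1 had 0 counts in all 12 libraries. GTPBP10, which holds 4.22% of the CLDN12 stretches, was at 8.85 to 20.2 CPM. Its log2 difference with Tm was 0.46 in WT and 0.50 in QRICH1 KO, in the direction of CLDN12. CDK14, which holds 2.14% of them, had at most 2 counts in any library. The part of GTPBP10 reads in the CLDN12 counts was not tested. CLDN3 and CLDN4 shared 22 such stretches, which is 1.80% of those of CLDN3.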

How the data were processed

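RNA-seq libraries of HT29 cells were made, per the labels' protocols, by a modified Smart-seq2 method with Nextera XT, a chemistry without strand marks or molecular identifiers. The deposited table gives the authors' raw counts as whole numbers per gene, not normalized. The submitters' processing notes name Trimmomatic, STAR, DESeq2 and the build hg38. Neither the counting tool nor the annotation release is given in the sources used here. Of 20015 gene IDs, 19893 had a symbol and 19972 matched GENCODE 29 once versions were removed, which gave positions and exon lengths (6 of the 10 member IDs also matched with the version).

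Counts were scaled by TMM and filtered by filterByExpr (minimum count 10), which left 11323 genes. All 12 libraries entered 1 quasi-likelihood fit in edgeR 4.0.16 (R 4.3.3) with a mean for each of the 4 groups, and DESeq2 1.42.0 was an alternative. A gene was called at a Benjamini-Hochberg adjusted p under 0.05 over all genes tested. Intervals are 95%. The common biological coefficient of variation was 0.155. Replicates of a group differed beyond counting noise (chi-square per degree of freedom 8.64 to 35.8). On data drawn with known changes among 11323 genes, for Tm against DMSO in WT, 65 of 100 genes changed 2-fold and 21 of 100 changed 1.5-fold were called. Shares, promoter searches and figures used Python 3.11.15 with pandas 2.3.3.

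Groups came from the labels. The members, lists, motifs and alternatives were chosen with earlier results of these data known. Named were all members, other claudins past the filter, up to 4 called genes per list and comparison with the largest changes, a few fixed genes (TJP3, CGN, MARVELD2, EPCAM, CDX2, HNF4A and CDH1), the 3 genes most correlated with each member called with Tm in WT, and QRICH1, HSPA5 and DDIT3 as checks. Some genes that this rule names, and 1 searched motif, are not reported here. Alternatives changed the filter, scaling, tool, samples fitted, replicate block and libraries left out.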

Additional observations from a re-analysis of the deposited data

How the results depend on the processing

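Over 940 pairings of a member's log2 fold change with an alternative, 912 kept their call or lack of one, 17 gained one, 11 lost one and none changed the direction of a call. Some alternatives left out a library of a group outside the comparison, which can change a call only through the shared fit. The interaction had no call in the main fit that could be lost. The total of 912 therefore includes pairings that could hardly change. The calls of CLDN1 and CLDN7 with Tm in WT, of CLDN2 and CLDN7 with Tm in QRICH1 KO, and of CLDN2 in WT with Tm and in QRICH1 KO against WT under Tm held in all 19 alternatives. Small uncalled differences, such as those of F11R, changed sign in some. Members called higher with Tm in WT numbered 4 with DESeq2 in place of 2, with CLDN12 and TJP1 added. With Tm in QRICH1 KO, 1 member was called higher in place of 3 and 1 lower in place of 2 without both libraries 3, and leaving out 1 library gave 1 to 3 lower.

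Over all genes, Tm against DMSO in QRICH1 KO gave 739 lower, 473 without both libraries 3 and 395 to 792 with 1 library left out. QRICH1 KO against WT under DMSO gave 2 higher and 9 lower. These were 76 and 62 with no filter, 25 and 36 with DESeq2 and 39 and 19 without both libraries 3, with 4 lower when only the compared groups were fitted, and 2 to 20 higher and 3 to 12 lower with 1 library left out. QRICH1 KO against WT under Tm gave 46 and 86, with 126 and 153 with no filter, 90 and 199 with DESeq2, and 13 to 58 and 36 to 102 with 1 left out. The interaction gave 0 and 0, with 12 and 32 with no filter, 9 and 33 with DESeq2 and 0 to 4 lower with 1 left out. The cause of these shifts was not tested. A fit of only the groups compared was not run for the interaction, which needs all 4.

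With the replicate number as a block (replicate block), QRICH1 KO against WT under DMSO gave 4 genes higher, and CLDN12 with Tm in WT (log2 0.73, edgeR adjusted p = 0.0223) and CLDN3 with Tm in QRICH1 KO (-0.39, 0.0426) gained calls. Same-numbered libraries correlated at -0.186 to 0.265, over 0.1 in 6 of 18 pairs, and 4 of 12 libraries correlated best with their own number. These 6 pairs (0.11 to 0.265) were those of libraries 1 and of libraries 3 among WT DMSO, QRICH1 KO DMSO and QRICH1 KO Tm. WT Tm library 1 correlated at -0.186 to -0.139 with the other libraries 1 and at 0.1181 to 0.2194 with the other libraries 3. WT Tm library 2 correlated at 0.1641 to 0.2255 with the other libraries 1 and at -0.2412 to -0.1363 with the other libraries 3. For WT Tm the block by number therefore does not group libraries by these correlations, which limits the calls gained with it. The labels do not say whether a number marks a shared batch, and this was not tested. CLDN15 rests on few counts, 13 to 48 per library.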

Other observations

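Transcription factors of the intestinal epithelium and of claudin genes were also followed. Of 22 listed, 15 were tested. With Tm, 1 was called higher and 5 lower in WT, beside 12.6% and 11.1% of all genes, and 0 and 2 in QRICH1 KO, beside 9.09% and 6.53%, with median log2 differences of -0.55 and -0.25 beside -0.02 and -0.0039 over all genes tested. HNF4A, a regulator of epithelial differentiation, was at 16.2, 10.5 and 11.2 CPM in WT DMSO and 6.68, 8.29 and 4.56 CPM in WT Tm (log2 -0.90, SE 0.244, adjusted p = 0.0112), lost without WT DMSO library 1 or WT Tm library 3 (adjusted p up to 0.0552). GRHL2, a regulator of epithelial junction genes, was at 97.4, 96.2 and 90.3 CPM and then 56.3, 55.6 and 63.7 CPM in WT, and fell in both genotypes (log2 -0.70, SE 0.110, adjusted p = 0.000129 in WT; -0.43, SE 0.109, adjusted p = 0.0110 in QRICH1 KO). Its QRICH1 KO call was lost without QRICH1 KO DMSO library 2 and without both libraries 3 (adjusted p up to 0.0922). CDX2 was at 0.226 to 1.44 CPM and was not called.

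KLF4 was called higher with Tm in WT (log2 2.32, SE 0.597, edgeR adjusted p = 0.00816) and OVOL2 lower (log2 -1.67, SE 0.503, adjusted p = 0.0211), both from few counts (5 to 7 counts of KLF4 per WT DMSO library, 3 to 14 of OVOL2 per WT Tm library). The KLF4 call was lost without WT DMSO library 2 (adjusted p = 0.0505) and the OVOL2 call without WT DMSO library 2 or WT Tm library 2. None of the differences between the genotypes' responses was called for these factors.

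Among 14 regulators of junctional actomyosin, 1 was called higher and 1 lower in each genotype, near the share of all genes (12.6% and 11.1% in WT, 9.09% and 6.53% in QRICH1 KO). ARHGEF2 (GEF-H1), an activator of RhoA that cingulin holds inactive at the junction, was at 37.0, 33.9 and 33.2 CPM in WT DMSO and 78.8, 92.5 and 81.0 CPM in WT Tm (log2 1.28, SE 0.147, edgeR adjusted p = 3.2e-06). In QRICH1 KO it went from 46.0, 51.6 and 33.7 to 71.5, 79.5 and 61.6 CPM (log2 0.69, SE 0.144, adjusted p = 0.00279), and it was called in all 19 alternatives in both. The non-muscle myosin gene MYH9 was lower (log2 -0.60, SE 0.131, adjusted p = 0.00256 in WT; -0.42, SE 0.131, adjusted p = 0.0351 in QRICH1 KO). Its QRICH1 KO call was lost without QRICH1 KO DMSO library 2 or 3 or QRICH1 KO Tm library 1 or 2 (adjusted p up to 0.133).

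Of 8 listed epithelial markers 7 were tested, all but CDH17. With Tm, 2 were called lower in WT, beside 11.1% of all genes, and 1 in QRICH1 KO, beside 6.53%. VIL1, a brush border actin-binding protein, was at 82.1, 87.4 and 88.6 CPM in WT DMSO and 53.5, 49.9 and 44.7 CPM in WT Tm (log2 -0.80, SE 0.118, edgeR adjusted p = 6.02e-05). KRT19 was called lower in both genotypes (log2 -0.64, SE 0.194, adjusted p = 0.0220 in WT; -0.61, SE 0.194, adjusted p = 0.0408 in QRICH1 KO). The WT call was lost without WT DMSO library 1 or WT Tm library 1 or 3, and the QRICH1 KO call in 7 of 19 alternatives (adjusted p up to 0.165). EPCAM was not called in any comparison.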
